A study of Oryza sativa with 3 samples.

Results

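The results describe the messenger RNA signal of 7 nuclear genes for proteins of the photosynthetic light reactions in rice leaves: 3 genes of chlorophyll-binding antenna proteins (CAB2R, LHCP and RCABP69) and 4 of photosystem proteins (PSB28, PSAG, PSAH and OEE3). The members were taken by gene identifier, as every probe set whose single annotated gene was one of the 7. This gave 9 probe sets out of 57194 on the array, and 7 genes out of 17905 that the platform annotation names. Leaves came from plants of Kitaake, a japonica rice cultivar, harvested after 6 weeks in a greenhouse. The single group held 3 replicates, raised side by side with no treatment, mutant or second cultivar, and 1 Affymetrix rice array was used for each. The labels do not give the number of plants in a replicate, the time of day or the leaf taken, so differences between replicates may partly come from the technique. The design therefore answers which signal these genes gave in the leaf and how far it differed between replicates, and it holds no contrast to test.

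Light-harvesting proteins bind chlorophyll a and b in the thylakoid membrane of the chloroplast and pass the energy of absorbed light to the photosystems. Photosystem II uses that energy to split water, and photosystem I uses it to reduce ferredoxin. The chloroplast genome encodes the reaction centre cores, while antenna proteins and many small subunits are encoded in the nucleus, translated in the cytosol and imported. Transcripts of antenna genes are known to be abundant in green leaves and to respond to light and to the circadian clock.

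All values are deposited log2 signals, so a difference of 1 is a 2-fold difference, and means are given ± SD over n = 3 arrays. Having 3 arrays limits how precise a value can be. Probes differ in how strongly they bind, so no gene is placed above another by transcript amount. Ranks place a probe set among all probe sets of its array by signal. The arrays had the same median of 5.63 over all probe sets and the same highest value of 14.78. Background was taken as the 95th percentile of 64 reporter probe sets, at 5.64, 5.60 and 5.77 on replicates 1, 2 and 3. Of leaf genes outside the 7, 5 of 5 matched ones, such as the chlorophyll synthesis gene CHLP at 13.16 ± 0.02, lay above background. Of the markers of other tissues, 2 of 3 root genes lay above background on every array, Lsi1 at 9.10 and IRT1 at 7.96. The same held for 2 of 3 seed genes, GLB at 9.96 and GLUA-2 at 9.46, with 6.41 in the other probe set of GLUA-2. It also held for 2 of 3 meristem genes, FON1 at 8.84 and OsWOX4 at 6.10, and for 0 of 2 anther genes. The meristem homeobox gene OSH1 was at 3.25 ± 0.10, and at 4.07 in its other probe set. In whole leaves, fewer cells of a type and less RNA per cell cannot be told apart.

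All 9 probe sets lay above background on all 3 arrays, as did 47.1% of all probe sets. The plot of signals by probe set shows 6 of them above a log2 signal of 14, a level reached by 77 probe sets in all (0.135%). The median over the 7 genes, with 1 probe set each, was 14.10, against 5.63 over all probe sets. It was 14.07, 14.16 and 14.12 on replicates 1, 2 and 3. High signal of photosynthesis genes in these leaves was known when the genes were chosen, so these levels are a description.

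**Figure D1:**
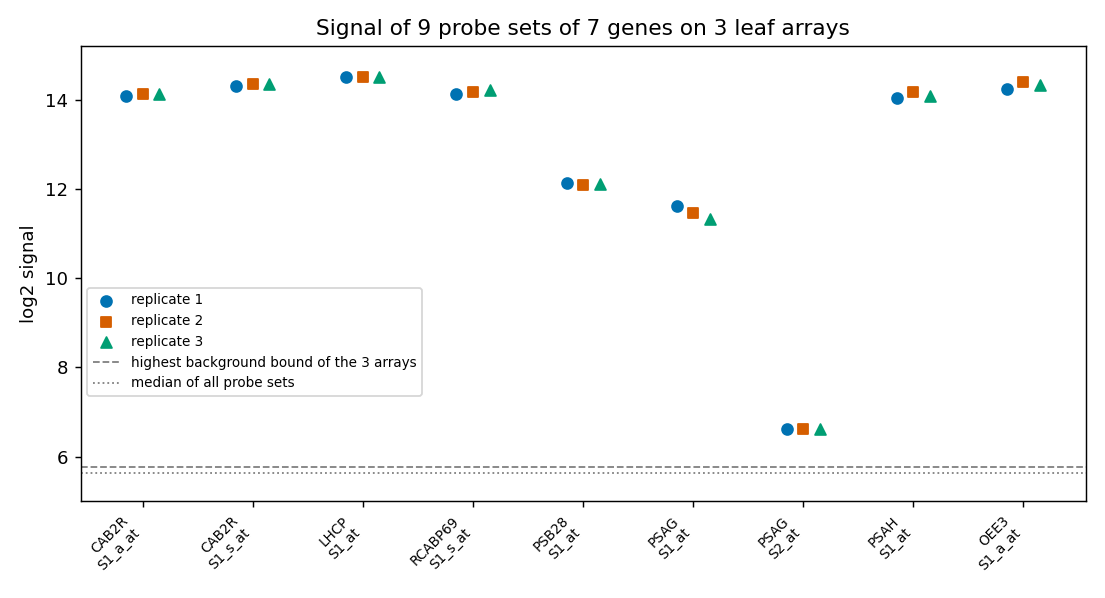
Log2 signal (vertical axis) of each of the 9 probe sets on replicates 1 to 3, with the highest of the background bounds (dashed, 5.77) and the median of all probe sets (dotted, 5.63). Probe sets of 5 genes sit above 14 on all arrays, PSB28 and one PSAG probe set lie between 11 and 13, and the other PSAG probe set lies at 6.62, just above the bound.

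The antenna genes gave high signals, within 1.07-fold over the arrays for each. LHCP (LOC4333359, 1 probe set), an antenna protein gene also named RCABP89, was at 14.49, 14.50 and 14.51 on replicates 1, 2 and 3, a mean of 14.50 ± 0.01. The arrays lay within 1.01-fold of each other, and the probe set ranked 12, 13 and 14 by signal among all probe sets of its array. Its SD was lower than that of most probe sets of like signal, at the 15.8th percentile of the 76 probe sets whose mean lay within 0.5 of its own.

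CAB2R (LOC4324599), an antenna gene that also carries the synonym LHCP, was measured by a pair of probe sets. The probe set with the suffix _a_at was at 14.07 on replicate 1 and at 14.12 on both others, a mean of 14.10 ± 0.03. The one with the suffix _s_at was at 14.31 on replicate 1 and at 14.34 on both others, a mean of 14.33 ± 0.02. Both were thus lowest on replicate 1 and equal on replicates 2 and 3, with a span of 1.03-fold in each. Exact equality between replicates 2 and 3 was common here, at 30% of all probe sets. The suffix _s_at marks probes shared by more than one transcript, and antenna genes are a family of similar sequences, so signal from relatives in the _s_at probe set cannot be told apart from that of CAB2R.

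RCABP69 (LOC4343583), another chlorophyll a/b-binding protein gene, was at 14.12, 14.16 and 14.21, a mean of 14.16 ± 0.05. Its only probe set is also of the _s_at type. Replicate 3 was 1.07-fold above replicate 1, and its SD lay at the 56.6th percentile of the 145 probe sets of like signal. The 3 antenna genes were all lowest on replicate 1, although LHCP was highest there when the arrays were quantile-normalized again (14.52, against 14.50 and 14.49).

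The photosystem genes fell into a high pair and a pair of lower signal. OEE3 (LOC4343515) encodes a small protein that sits on the lumen side of photosystem II and helps to hold the oxygen-evolving centre. Its signal was 14.23, 14.39 and 14.33 on replicates 1, 2 and 3, a mean of 14.32 ± 0.08. Replicate 2 was highest and replicate 1 lowest, 1.11-fold apart. By rank among all probe sets OEE3 was 44th on replicate 1, 19th on replicate 2 and 29th on replicate 3. Its SD was at percentile 82.1 of the 117 probe sets of like signal.

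PSAH (LOC4339593) encodes a small subunit of photosystem I where, in Arabidopsis, mobile antenna docks during state transitions. It was at 14.03, 14.17 and 14.07, a mean of 14.09 ± 0.07. The order of the arrays was that of OEE3, with replicate 2 highest, replicate 1 lowest and a span of 1.10-fold. Its ranks were 75, 42 and 67, and its SD lay at the 69.7th percentile of 165 probe sets of like signal.

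PSB28 (LOC4326537) encodes a protein that, in cyanobacteria, binds photosystem II while it is being assembled and is not a constant part of the finished complex. It was at 12.13, 12.08 and 12.11, a mean of 12.11 ± 0.02, with ranks of 943, 1010 and 957. Here replicate 1 was highest and replicate 2 lowest, 1.03-fold apart. The SD was at the 18.7th percentile of the 948 probe sets of like signal, so this gene, like LHCP, was among the more even of its signal class.

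PSAG (LOC4337812) encodes a membrane subunit of photosystem I at the side where its antenna attaches, and it had the largest spread of the 7 genes. The probe set S1 was at 11.62, 11.46 and 11.33 on replicates 1, 2 and 3, a mean of 11.47 ± 0.15. Replicate 1 was thus 1.23-fold above replicate 3, and the ranks were 1553, 1791 and 1915. The SD lay at the 83.6th percentile of 1442 probe sets of like signal. The second probe set, S2, was at 6.62 on all 3 arrays, 0.85 above the nearest background bound.

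The probe sets of PSAG therefore disagreed in spread, and one of them does not show the difference between replicates. The same value on every array was found for 24.2% of all probe sets, so an SD of 0.00 is no sign of an exact measurement. The mean over both PSAG probe sets was 9.04, against 11.47 for the first alone. The 2 probe sets of CAB2R, in contrast, moved the same way on each array.

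**Figure D2:**
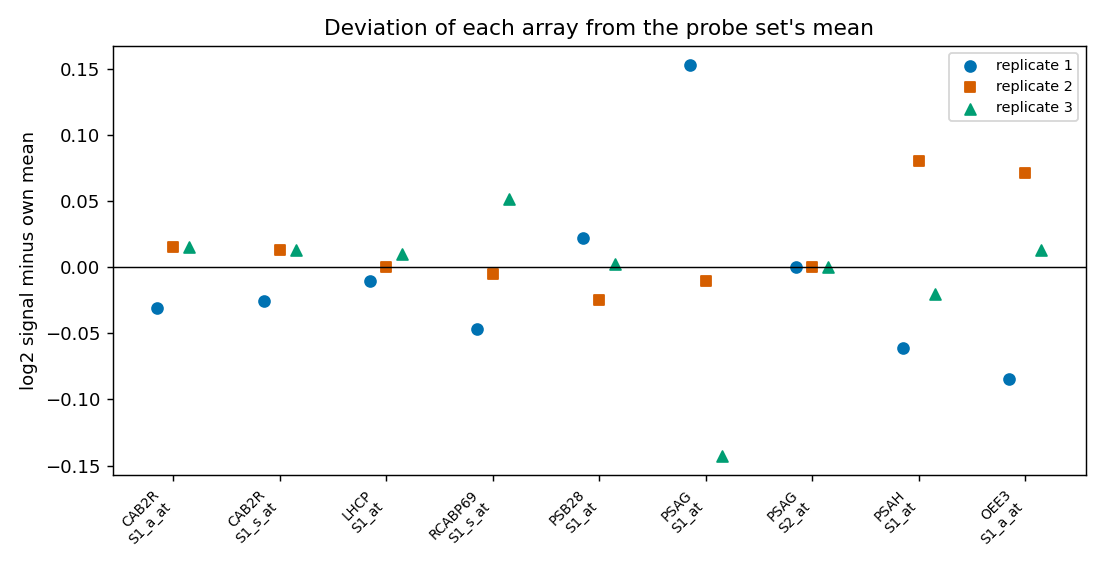
Deviation of each array from the mean of the probe set (log2, vertical axis) for the 9 probe sets. Replicate 1 is lowest in 6 probe sets, and the widest gap is that of PSAG S1, from 11.62 on replicate 1 to 11.33 on replicate 3, while its other probe set shows none.

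Differences between replicates were small for all members. The highest and lowest arrays differed by at least 0.1 (log2) in 3 of the 9 probe sets (PSAG S1, PSAH and OEE3). The same was true of 53.7% of all probe sets, with a median difference of 0.12. Over the 77 probe sets with a mean of at least 14 the median difference was 0.061. In PSAG S1, PSAH and OEE3 it was 0.30, 0.14 and 0.16, against medians of 0.12, 0.080 and 0.072 for probe sets of like signal. None of the 9 reached a 2-fold difference, which 0.972% of all probe sets did. Compared with probe sets of like signal, 4 of the 9 SDs were above the median of their class and 5 were not. The 4 came from different genes (RCABP69, PSAG, PSAH and OEE3). The 5 included both probe sets of CAB2R, and PSAG S2 with its equal values. The median SD was 0.03 over the 77 probe sets with a mean of at least 14 and 0.07 over all probe sets.

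**Figure D3:**
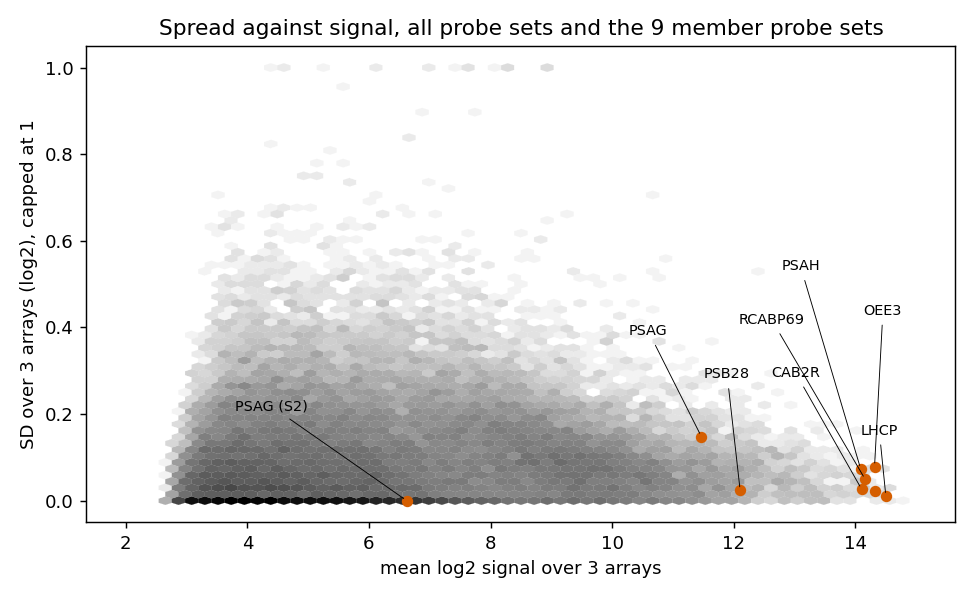
SD over 3 arrays (log2, vertical axis, capped at 1) against mean log2 signal for all 57194 probe sets (grey, darker where more probe sets fall) and the 9 member probe sets (orange; PSAG S2 is the second probe set of PSAG, and the unlabelled point at 14.33 is the second probe set of CAB2R). High signals have a narrow spread, and PSAG at 11.47 has the largest SD of the 9, 0.15.

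Replicate by replicate, the genes did not move as one. On replicate 1 the signal was below the mean of the other arrays in 5 of 7 genes and above it in 2 (PSB28 and PSAG), with a median difference of -0.046. Of all probe sets 34.9% were below and 40.9% above on that array. Among the 77 probe sets with a mean of at least 14 there were 39 below and 33 above, and all 6 member probe sets of that class were below. With quantile normalization again the 5 genes became 4, since LHCP turned from -0.016 to 0.025. The difference reached 0.1 in OEE3, lower by -0.13, and in PSAG, higher by 0.23. Of all probe sets 15.3% were lower and 17.5% higher by at least 0.1. Among probe sets above background these shares were 12.5% and 24.5%.

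On replicate 2, PSAH was higher than the mean of the other arrays by 0.12 and OEE3 by 0.11. By at least 0.1, 18.4% of all probe sets were higher, and 26.9% of those above background. The other 5 genes differed by less, 2 of them upward (CAB2R and LHCP) and 3 downward. With quantile normalization again RCABP69 turned from -0.0076 to 0.024 and LHCP from 0.00086 to -0.0056, which left the counts as they were. The 7 genes had 4 above and 3 below, where 41.8% of all probe sets were above and 34% below. The poly-A spike transcripts, which are added to the RNA before labelling, were also higher on replicate 2, in 36 of 36 probe sets with a median of 0.29. They were lower on replicate 1 in 27 of 36, with a median of -0.097, and on replicate 3 in 35 of 36, with a median of -0.19. Several of the 36 probe sets measure the same spike transcript, so they are not independent readings. PSAH and OEE3 were lowest on replicate 1, whereas the spikes had their lowest median on replicate 3. The part of labelling in these values was not tested.

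On replicate 3, PSAG was lower than the mean of the others by -0.21. By at least 0.1, 26.8% of all probe sets were lower, and 39.6% of those above background. The remaining genes differed by less than 0.1, with RCABP69 the highest at 0.08, and the median over the 7 genes was 0.015. There were 5 genes above and 2 below (PSAG and PSAH), against 31.6% and 44.2% of all probe sets. Among the 77 probe sets with a mean of at least 14, however, 45 were above and 27 below on this array. Of the 6 member probe sets of that class, 5 were above. With quantile normalization again LHCP turned from 0.015 to -0.020, which left 4 of the 7 genes above and 3 below. As a mean over the 7 genes the difference was -0.015, and without PSAG it was 0.018, so its direction on this array rests on that gene. The actin control AFFX-Os_Actin had a difference between its 3' and 5' probe sets of 2.13, 2.24 and 2.63 on replicates 1, 2 and 3, a measure that rises when RNA is shortened. The same measure was 3.52, 3.52 and 3.39 for the control AFFX-Os-actin and 1.44, 1.43 and 1.45 for AFFX-Os_Gapdh. For AFFX-Os-gapdh, whose probe sets lay below background, it was 1.11, 1.11 and 1.11. It was thus highest on replicate 3 in 3 of the 4 controls, by less than 0.1 in both Gapdh controls, and lowest there in AFFX-Os-actin. The part of RNA quality in the PSAG values was not tested.

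Other genes whose names matched photosynthesis patterns numbered 7, with a median signal of 13.98, and they were taken by name alone. These names were searched in the annotation by patterns for photosystem, antenna and electron transport genes, and the array's further antenna and photosystem genes, whose probe sets carry no such name here, were not used. PETE (LOC4339833), plastocyanin, which carries electrons to photosystem I, was at 14.66 on all 3 arrays when rounded, with ± 0.00. The Rieske iron-sulphur gene petC (LOC4343570) of the cytochrome complex was at 14.18, 14.18 and 14.16. LFNR1 (LOC4339874), the leaf ferredoxin-NADP reductase, was at 13.98 ± 0.02. The SDs of these 3 genes were 0.0038, 0.0086 and 0.022, with replicate 1 lowest in PETE and highest in LFNR1.

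LIR1 (LOC4326442), a light-regulated nuclear gene for a chloroplast protein, was at 14.54, 14.57 and 14.53. A pair of genes named only FNR were lower in signal, LOC4334338 at 9.63, 9.63 and 9.50 and LOC4342399 at 7.84, 7.84 and 7.64. A second probe set of LOC4342399, of the _s_at type, was at 10.28, 10.28 and 10.19. The last match, LOC4346337, entered through the synonym PSA at 12.31 ± 0.03 and also carries the name AAP-S, so its place among photosynthesis genes was not checked. On replicate 1, 2 of these 7 genes were below the mean of the others and 5 above, where the members had 5 below and 2 above. On replicate 3 they had 5 below and 2 above, against 2 below and 5 above among the members. The 5 above on replicate 1 and the 5 below on replicate 3 both included the pair named FNR and LOC4346337. Of the rest, PETE and LIR1 were below on replicate 1, with petC and LFNR1 above. On replicate 3, petC and LIR1 were below, with PETE and LFNR1 above. With quantile normalization again the other names had 1 below on replicate 1 and 6 below on replicate 3, and the members 4 and 3. These counts were not tested against each other.

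**Figure D4:**
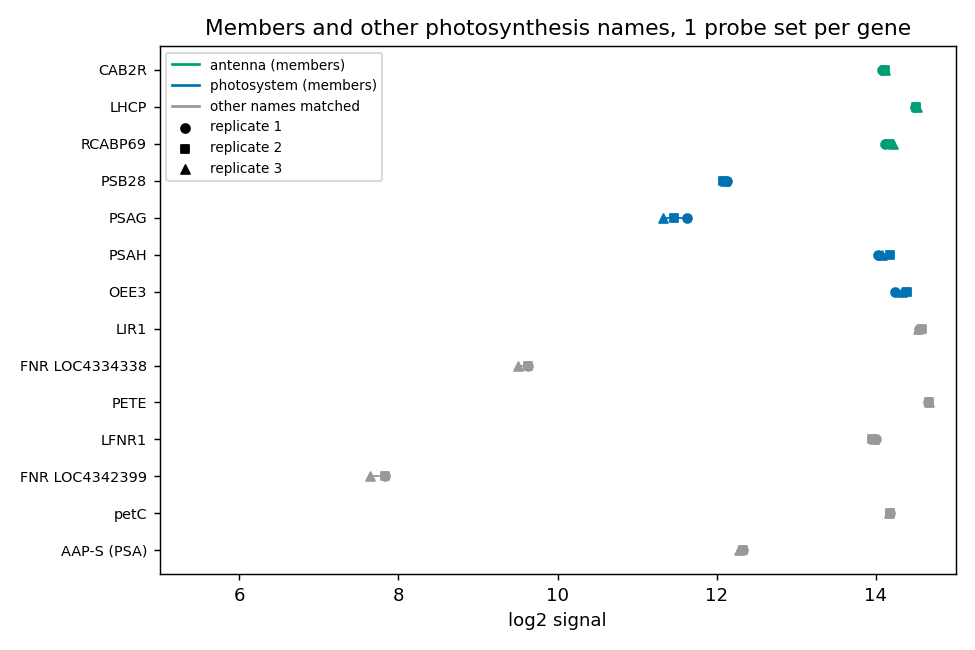
Log2 signal (horizontal axis) of the 7 members and the 7 other names matched, 1 probe set per gene, with a marker for each replicate. In the probe sets drawn, the members sit at 11.33 or above on every array. Among the other names only the pair named FNR lie below 10. PSAG S2, at 6.62, and the second probe set of LOC4342399, at 10.25, are not drawn.

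A list drawn up by name for carbon fixation matched 6 genes, with signals over a wider range and a median of 11.62. Not all of them belong to that pathway: glycolate oxidases act in photorespiration, and the places of CFBP1 and GLDH1, matched by name alone, were not checked. Rubisco activase RCAA1 (LOC4351224) was at 14.25, 14.21 and 14.11 in the probe set that stood for it. Its other probe sets had means of 14.04, 14.13 and 14.10, the first highest on replicate 3 and the rest on replicate 1. Glycolate oxidase GLO1 was at 13.38 on all arrays in one probe set, and at 8.66, 8.86 and 8.48 in its other. CFBP1, a fructose bisphosphatase gene, was at 12.04 ± 0.03, and at 10.27 ± 0.10 in its other probe set. GLO4 was at 11.21 ± 0.13 and GLDH1 at 8.89 ± 0.10. RBCS1, a gene named for the Rubisco small subunit, was at 3.44 ± 0.10, and it was the only one of the 6 not above background. It had 1 probe set, and no other gene with an RBCS name was matched. Its value therefore does not describe the Rubisco small subunit as a whole.

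The members' median profile was a deviation from the gene's own mean of -0.03, 0.00 and 0.01 on replicates 1, 2 and 3. Among 286 named genes with a mean signal at least that of PSAG, the 5 nearest to this profile over the 3 arrays were RPS27AA, TOM20, OsCASPL2D1, RPS26 and APX2. Their distances were 0.013, 0.014, 0.015, 0.015 and 0.019 on the log2 scale. APX2, an ascorbate peroxidase gene, was at 14.01, 14.02 and 14.05, and RPS26, a ribosomal protein gene, at 12.04, 12.07 and 12.09. The profile is nearly flat and rests on 3 arrays, so nearness to it says mainly that these genes varied little.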

How the data were processed

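The authors deposited 1 log2 signal per probe set and array. Per the submitters' processing notes the tool was RMA. No version or settings are given in the sources used here. Whether arrays of another series were normalized with these is not known. RMA ends in median polish, which returns ties between arrays, so SDs may understate the error of single probe sets. Per the labels' protocols, TRIzol extraction was followed by DNase on a column, a clean-up and biotin labelling.

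The table held 57381 probe sets, and 187 of them, controls and reporters, were left out. The platform annotation gave 1 gene to 22436 probe sets, several to 95 and none to 34663, and all 17905 genes were found in RefSeq's gene table (assembly ASM3414082v1), which served for names only. No coordinates or sequences are printed. Where a gene had several probe sets, the one with a suffix other than _x_at or _s_at and the highest mean stood for it in gene counts, and every member probe set is given. The background bound was planned over all probe sets that match no rice gene. It was taken over the reporters alone, since spike controls carry added RNA. Probe sets of like signal are those with a mean within 0.5; this width, the level of 14 and the check of spike and actin controls were chosen after the values were seen.

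A shift is the signal on 1 array minus the mean of the others. With 1 group there was no contrast, so no test was made. Differences of at least 0.1 and of at least 1 were counted beside the share of all probe sets, with values called equal within 1e-09. The code that computes shifts was checked on simulated data. The members and lists were chosen with earlier results of these data known. Named genes are the members, every gene matched to the photosynthesis and carbon fixation name patterns, and the 5 genes nearest in profile. Of 7 leaf names 5 matched, of 4 meristem names 3 and of 4 anther names 2. Alternatives were quantile normalization again, median centring, the mean of all probe sets, leaving out each replicate, a mean over genes, a higher bound and a filter on dim probe sets. Python 3.11.15 with numpy 2.4.6, pandas 2.3.3 and matplotlib 3.10.9 was used.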

Additional observations from a re-analysis of the deposited data

How the results depend on the processing

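The mean of all probe sets moved CAB2R to 14.22, PSAG to 9.04 and the median over the 7 genes to 14.16, from 14.10, 11.47 and 14.10. The direction of the members on replicate 3 turned from a median of 0.015 to -0.015 as a mean over genes. The other 5 genes have 1 probe set each. With replicates left out in turn the median over genes ran from 14.10 to 14.12, PSAG from 11.39 to 11.54, OEE3 from 14.28 to 14.36 and PSAH from 14.05 to 14.12. The median shifts of the members ran from -0.0414 to -0.0408 on replicate 1, 0.00 to 0.041 on replicate 2 and 0.00 to 0.041 on replicate 3. Each range holds only the runs that kept that replicate. As a mean over genes the shift on replicate 1 was -0.012, against a median of -0.046. With quantile normalization again LHCP was highest on replicate 1. RCABP69 on replicate 2 then turned from -0.0076 to 0.024 against the mean of the others. The median change over all probe sets was at most 0.0030 in size on any array. The count of 9 probe sets above background held with the highest reporter as the bound (6.51, 6.51 and 6.59), only just for PSAG S2 at 6.62. Among probe sets above background 39.6% were lower on replicate 3 by at least 0.1. The other alternatives run moved no signal by more than 1 SD over the arrays. They moved no median shift of the members by more than 0.042, the SD of the array medians. That SD is nearly as large as the largest of these shifts, -0.046. Shares of probe sets carry no SD, and the filter on dim ones took those higher on replicate 2 from 18.4% to 26.9%. No paired analysis was possible because there is 1 group. Signals near the highest value of 14.78 may be compressed, which was not tested.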
